A study of Danio rerio with 6 samples.

Results

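Integrins and cadherins are the main families of receptors by which cells hold on to matrix and to each other, and 47 genes of these families were followed in RNA-seq libraries of zebrafish with and without an intact ikzf1 gene, which encodes the lymphoid transcription factor Ikaros. The genes were chosen by symbol: those beginning with itga or itgb, or with cdh and a digit, leaving out itga2b, cdh5 and the cdhr and itgb1bp genes, with at least 10 counts summed over the 6 libraries. Of 61 genes whose symbol fits, 47 reached that minimum among 32105 genes of the table, 30 by an integrin symbol and 17 by a cadherin symbol. One of the 30, itgb3bp, carries the symbol of an integrin-binding protein that is known as a centromere component and is no integrin subunit. The libraries came from 3 fish homozygous for the CRISPR allele fr105 of ikzf1 and from 3 wild-type siblings, all of mixed wild-type strain background. Their age is given as 5 days post fertilization, and each library was made from 1 fish according to the methods. The fr105 allele is a deletion that leaves a truncated protein, and the comparison therefore rests on 1 allele.

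The libraries held 34759504 to 39404324 counts. Counts of ikzf1 itself were 53145, 44700 and 29104 in the mutants and 8746, 6776 and 10579 in the wild types, a difference of 2.37 on the log2 scale. A count over the whole gene does not show the deletion, so ikzf1 transcript level was no check of the allele. The libraries are labelled as whole body, but defining genes of several large tissues were nearly unread: the matched genes of a lens list had at most 16 counts and those of a neuron list at most 4 counts in any library, 3 of 4 and 2 of 4 of them were at 0 throughout, and the skeletal muscle list took at most 0.000183% of the counts. Neutrophil genes took up to 5.22% and erythroid genes up to 6.11%. The libraries are therefore described here by genotype, with no tissue name, and their age is stated only as labelled. In bulk RNA, fewer cells of a type and less RNA per cell cannot be told apart.

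Integrins are pairs of an alpha and a beta chain that span the membrane. The chains together decide the ligand (collagen, laminin, proteins with the Arg-Gly-Asp motif, or counter-receptors on other cells), and talin and kindlin bind the beta tail to switch the receptor on. In blood cells, beta 2 integrins carry leukocyte adhesion and the alpha IIb beta 3 integrin carries thrombocyte aggregation. Classical cadherins bind the same cadherin on the next cell in the presence of calcium, and their tails hold catenins that connect to actin.

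Of the 47 genes, 38 had enough counts to enter the test across all genes (edgeR's quasi-likelihood F test, Benjamini-Hochberg adjusted over 16630 genes), 25 integrin and 13 cadherin genes. In the mutants 7 of them rose and 3 fell at an adjusted p under 0.05. The share that rose was 18.4%, where 11% of all genes tested rose, and the share that fell was 7.89%, where 8.76% of all genes fell. In both directions together 26.3% were called, against 19.8% of all genes. The 7 and the 3 all changed by at least 1 on the log2 scale, where 6.65% of all genes were called higher and 4.23% lower by that much. In 9 of the 38 genes each mutant lay above each wild type, where 21.3% of all genes did so, and in 5 each mutant lay below, where 20.6% did. The median log2 fold change of the 38 was 0.20, against -0.0048 for all genes tested, and 25 of the 38 estimates were above 0. By family, 4 of 25 integrin genes (16.0%) were called, with 4 higher and 0 lower, and 6 of 13 cadherin genes (46.2%) were called, with 3 higher and 3 lower. At an unadjusted edgeR p under 0.05, 5 integrin genes were higher and 2 lower. Of 7745 tested genes of the whole table with a mean of at least 500 counts, 1509 were higher and 1437 lower at that p. Of 8885 with a lower mean, 1608 were higher and 1383 lower. DESeq2 called 4 integrin genes higher and 2 lower. It called 1033 of the 7745 genes higher and 894 lower, and 1197 of the 8885 higher and 885 lower. The difference between the families was not tested.

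**Figure D1:**
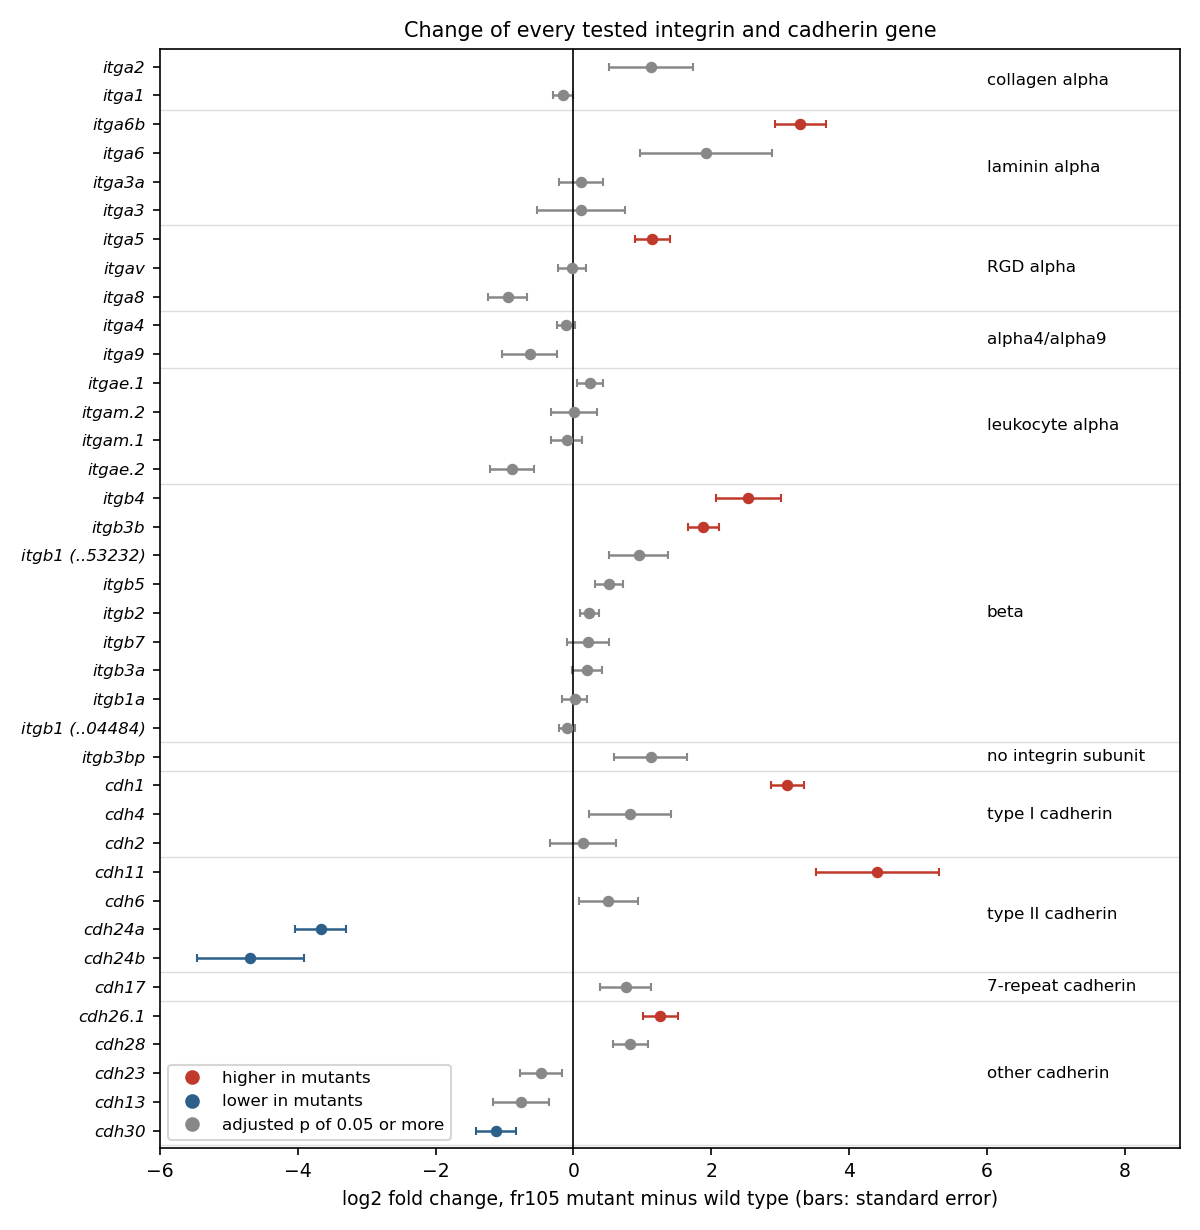
Log2 fold change (fr105 mutant minus wild type) on the x axis for the 38 tested integrin and cadherin genes, ordered by group on the y axis, with bars of 1 standard error; filled colours mark an adjusted p under 0.05. The 7 called higher run from 1.14 (itga5) to 4.41 (cdh11) and the 3 called lower from -1.13 (cdh30) to -4.69 (cdh24b).

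The most abundant receptors were not among the called genes. The 12 with a mean of at least 500 counts held 95.3 to 97.7% of all counts of the 47 genes, and 0 of these 12 were called. At that level 19.6% of 7745 genes of the whole table were called. At an unadjusted edgeR p under 0.05, 1 of the 12 was lower, and DESeq2 called that 1 lower. Of the 7745 genes, 1509 were higher and 1437 lower at that p, and DESeq2 called 1033 higher and 894 lower. Below 500 counts, 7 of 26 were higher and 3 lower, which is 38.5% called against 19.9% of 8885 genes. The value of 500 was chosen after the counts had been seen. The called genes itga5 and itgb3b lie just under it, with means of 489 and 433 counts, and with 400 in its place 2 of 14 were called.

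itgb2 encodes the beta 2 chain shared by the leukocyte integrins. It had 47969, 51693 and 52266 counts in the mutants and 40103, 53189 and 46076 in the wild types. Mutant and wild-type libraries overlapped, and the log2 fold change of 0.23 ± 0.14 (SE, n = 3 per group) had an adjusted p of 0.277. Within the integrin counts of a library, itgb2 took 53.6 to 56.8% in the mutants and 48.2 to 50.01% in the wild types, so its share was higher in each mutant than in any wild type. The share taken by itgam.1 overlapped, with 15.7 to 17.7% in the mutants and 13.2 to 21.1% in the wild types. Neither share was tested. Neutrophil marker genes summed to 38680 to 52340 CPM (counts scaled to the size of the library) in the mutants and 24620 to 37250 CPM in the wild types, with 1 of 6 called, higher. The part of neutrophil content in the itgb2 share was not tested.

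The alpha M chain joins beta 2 to form the complement receptor of neutrophils and macrophages, and a pair of genes carries its name here. itgam.1 had 15602, 15030 and 15330 counts in the mutants and 11002, 22365 and 19449 in the wild types. The mutants lay close together between the wild-type extremes, with a log2 fold change of -0.10 (adjusted p = 0.791). itgam.2 had 911, 1026 and 1255 counts against 579, 1629 and 1221, again inside the wild-type range. Wild-type replicate 4 was the lowest library for both copies, for itgb2 and for the neutrophil marker sum.

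The alpha E chain pairs with beta 7 in mammals and binds E-cadherin. itgae.2 had 3194, 2073 and 4391 counts in the mutants and 8596, 6211 and 4405 in the wild types. The highest mutant and the lowest wild type nearly met in counts and crossed once scaled to library size, and the log2 fold change of -0.89 ± 0.32 (SE, n = 3 per group) did not pass in edgeR (adjusted p = 0.0884, range 0.0172 to 0.095 over 8 alternatives that kept all libraries); the lowest value is DESeq2's. The related itgae.1 had 597, 734 and 897 counts against 582, 743 and 715, a log2 fold change of 0.24 (adjusted p = 0.4). Of the counts of this pair, itgae.2 took 84.3, 73.9 and 83.0% in the mutants and 93.7, 89.3 and 86.0% in the wild types. The groups did not overlap in that share. T cell marker genes summed to 101 to 169 CPM in the mutants and 257 to 288 CPM in the wild types, most of it from ccr9a. The paper lists ccr9a for T cells and for B cells. Of the marker genes 2 of 5 were called, lck and ccr9a, both lower, and zap70, cd4-1 and cd8a were not called. The part of T cell content in the itgae.2 values was not tested. itgb7, the beta 7 chain, had 401, 691 and 646 counts in the mutants and 768, 419 and 430 in the wild types, and 1 wild type exceeded every mutant.

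itga4 encodes the alpha 4 chain, which binds fibronectin and vascular counter-receptors. It had 2269, 2486 and 2841 counts in the mutants and 3074, 2814 and 2921 in the wild types, and the log2 fold change was -0.11 (adjusted p = 0.577). The related itga9 was at 17 to 28 counts in the mutants and 26 to 56 in the wild types, and was not called (adjusted p = 0.292). Neither member of this class passed the test.

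**Figure D2:**
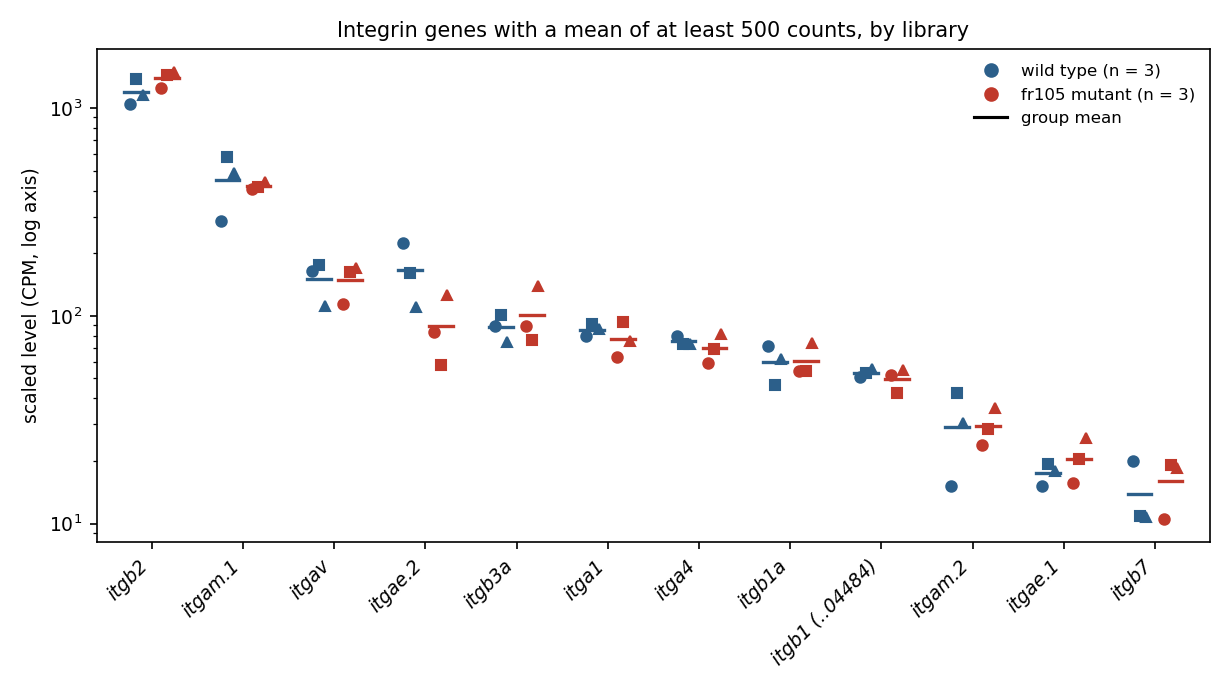
Normalised level (CPM, logarithmic y axis) of the abundant integrin genes on the x axis in each of the 6 libraries. Red marks fr105 mutants and blue marks wild types, and each point is a library. Mutant and wild-type points overlap for each gene shown, as for itgb2 at 47969 to 52266 counts against 40103 to 53189.

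Among the alpha chains that bind the Arg-Gly-Asp motif, itga5, the fibronectin receptor chain, rose. It had 844, 606 and 528 counts in the mutants and 198, 360 and 397 in the wild types, a level of 18.0 ± 3.61 CPM against 8.14 ± 2.58 CPM (SD, n = 3 each). No wild type reached the lowest mutant, and the log2 fold change was 1.14 ± 0.26 (SE; edgeR adjusted p = 0.0183). Without mutant replicate 1, which was the highest library, the adjusted p was 0.0701. itga8, whose chain pairs with beta 1 and is known from mammalian kidney, had 48, 45 and 38 counts in the mutants and 116, 66 and 90 in the wild types. Its groups did not overlap, and its log2 fold change of -0.96 ± 0.29 lay at the threshold (edgeR adjusted p = 0.0508, range 0.0371 to 0.0623 over 8 alternatives, of which 5 passed). itgav, the alpha V chain that binds vitronectin and fibronectin, had 4347, 5836 and 5909 counts against 6255, 6758 and 4485, with overlapping groups and a log2 fold change of -0.02 (adjusted p = 0.959).

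The laminin-binding receptor alpha 6 beta 4 anchors epithelia to basement membrane in hemidesmosomes, and genes for both of its chains rose. itga6b had 114, 76 and 151 counts in the mutants and 12, 15 and 10 in the wild types. Even the lowest mutant was several times above the highest wild type, at 3.14 ± 1.11 CPM against 0.317 ± 0.0701 CPM (SD, n = 3 each), for a log2 fold change of 3.29 ± 0.37 (SE; edgeR adjusted p = 0.000813). itgb4 had 98, 133 and 118 counts in the mutants and 38, 16 and 10 in the wild types. The groups did not overlap, with 3.21 ± 0.587 CPM against 0.553 ± 0.390 CPM and a log2 fold change of 2.54 ± 0.47 (edgeR adjusted p = 0.00844). Wild-type replicate 4 was the highest of its group for itgb4, and without it the log2 fold change was 3.26. The summed epidermal markers overlapped between the groups, with 2.46 to 3.42 CPM in the mutants and 1.79 to 4.24 CPM in the wild types. In edgeR 0 of 3 tested passed (unadjusted p of 0.923 for krt4, 0.885 for krt91 and 0.409 for epcam). The epidermal keratin cyt1 was at 0 in every library and krt5 had at most 10 counts. Each of the 3 estimates depended on 1 wild-type library. Omitting wild-type replicate 4 moved epcam from 0.55 to 1.66 on the log2 scale. With wild-type replicate 6 omitted, krt91 moved from 0.11 to 1.51 and krt4 from -0.05 to 0.59. Over all fits with 1 library omitted, the smallest edgeR adjusted p was 0.0611, for epcam. The part of epidermal cells in the itga6b and itgb4 values was not tested.

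Another alpha 6 gene, itga6, had 25, 2 and 61 counts in the mutants and 10, 4 and 11 in the wild types. The mutants spread from below to above all wild types, and the value depended on the library: the log2 fold change was 1.92 with all libraries (adjusted p = 0.191), 2.47 without mutant replicate 2 (0.0427) and 0.74 without mutant replicate 3 (0.647). itga3 and itga3a, alpha 3 chains of laminin receptors, were at 6 to 32 counts against 12 to 33 and at 46 to 84 counts against 55 to 73, with adjusted p of 0.921 and 0.83. The median log2 fold change of the 4 tested laminin receptor alpha genes was 1.01, where 1 of 4 was called.

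The collagen-binding alpha chains gave 0 calls among 2 tested (0 at an unadjusted p under 0.05, and 0 by DESeq2). itga1 had 2434, 3354 and 2636 counts in the mutants and 3054, 3525 and 3456 in the wild types, with a log2 fold change of -0.15 (edgeR adjusted p = 0.5). itga2 had 64, 30 and 14 counts against 18, 8 and 26. The mutants ran from 0.401 to 1.67 CPM, a wider span than that between the group means of 0.969 and 0.442 CPM. The edgeR adjusted p was 0.224.

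The beta 3 genes differed from each other. The beta 3 chain pairs with alpha V and, in thrombocytes, with alpha IIb, and zebrafish carry a pair of genes for it. itgb3b had 960, 557 and 501 counts in the mutants and 194, 173 and 212 in the wild types, so that the wild types lay close together and well below each mutant. Its level was 18.3 ± 5.89 CPM against 4.95 ± 0.411 CPM (SD, n = 3 each), which is a log2 fold change of 1.89 ± 0.23 (SE; edgeR adjusted p = 0.00113). itgb3a had 3423, 2740 and 4835 counts against 3426, 3884 and 3000, with overlapping groups and a log2 fold change of 0.20 (adjusted p = 0.56). Of the counts of the pair, itgb3b took 21.9, 16.9 and 9.39% in the mutants and 5.36, 4.26 and 6.60% in the wild types. The share of the smaller copy was higher in each mutant than in any wild type.

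The partner chain gene itga2b, which the choice of genes left out, had 1599, 1219 and 1328 counts in the mutants and 221, 204 and 347 in the wild types, a log2 fold change of 2.53 ± 0.20 (edgeR adjusted p = 0.000129). Thrombocyte marker genes, itga2b among them, summed to 384 to 465 CPM in the mutants and 231 to 320 CPM in the wild types. Most of this level came from fli1a and gp1bb. Of 6 tested, 2 were called, itga2b itself and mpl, both higher. Not called were gp1bb, gp9, gfi1b and fli1a, with log2 fold changes of 1.03, 0.63, 0.55 and 0.07. The untested thpo had 2 counts in all libraries together. The part of thrombocyte content in the itgb3b values was not tested.

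The beta 1 chain is the common partner of most matrix-binding alpha chains. Several genes carry its name, and reads that match more than 1 near-identical copy may be split among them or left uncounted. itgb1a had 2088, 1944 and 2570 counts in the mutants and 2741, 1789 and 2477 in the wild types, and the itgb1 gene ENSDARG00000104484 had 1988, 1533 and 1907 against 1951, 2041 and 2220. Both had overlapping groups, with adjusted p of 0.955 and 0.587. A further itgb1 gene, ENSDARG00000053232, had 167, 71 and 185 counts against 66, 50 and 120, a log2 fold change of 0.95 ± 0.43 (adjusted p = 0.153). itgb5, a partner of alpha V, had 226, 204 and 306 counts in the mutants and 184, 182 and 187 in the wild types. Its groups did not overlap, but the log2 fold change of 0.52 ± 0.20 did not pass (adjusted p = 0.106). The centromere gene itgb3bp was at 14 to 38 counts in the mutants and 8 to 20 in the wild types (adjusted p = 0.168).

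Among the cadherins, cdh1 had the smallest p. It encodes E-cadherin, the classical cadherin of epithelia. Counts were 310, 332 and 368 in the mutants and 30, 42 and 54 in the wild types. Each group was tight and the gap between them wide, with 9.29 ± 1.22 CPM against 1.07 ± 0.282 CPM (SD, n = 3 each), for a log2 fold change of 3.11 ± 0.24 (SE; edgeR adjusted p = 0.000113). The epidermal marker sums given above overlapped between the groups, and kidney tubule marker sums did as well, with 116 to 219 CPM in the mutants against 110 to 225 CPM in the wild types, most of it from slc20a1a. By edgeR and by DESeq2, 0 of the 6 kidney genes were called, and 1 (slc13a1, lower) had an unadjusted p under 0.05. The log2 fold changes were 1.34 for pax8, with each mutant above each wild type, 1.81 for slc12a1 and 1.1 for slc12a3. They were -2.01 for slc13a1, -0.21 for cubn and -0.18 for slc20a1a. Of 10 listed kidney symbols, 6 were matched. The part of epidermal and kidney tubule cells in the cdh1 values was not tested.

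The other tested type I cadherins were not called. cdh2, N-cadherin, had 68, 116 and 64 counts in the mutants and 46, 50 and 148 in the wild types, with the highest value in a wild type (adjusted p = 0.861). cdh4, R-cadherin, had 12 to 36 counts against 6 to 22 (adjusted p = 0.357). Neither had groups that separated.

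The type II cadherins held calls in both directions. cdh24a had 9, 9 and 4 counts in the mutants and 117, 92 and 94 in the wild types. The groups were far apart, with 0.200 ± 0.0744 CPM against 2.60 ± 0.399 CPM (SD, n = 3 each), for a log2 fold change of -3.67 ± 0.36 (SE; edgeR adjusted p = 0.000421). cdh24b had 6, 2 and 0 counts against 35, 102 and 92, so both copies fell. Its counts summed to 8 against 229, a wild-type level 26.7-fold that of the mutants with a 95% counting interval of 10.2 to 99.8 on halved counts (each mate of a read pair appears to have been counted on its own), and the fitted log2 fold change was -4.69 ± 0.78 (edgeR adjusted p = 0.00536). Without mutant replicate 1 the fitted value was -5.96. B cell marker genes summed to 73.3 to 130 CPM in the mutants and 278 to 511 CPM in the wild types, most of it from ighm. All 4 of 4 were called, lower. The T cell marker sums given above were also lower in each mutant than in any wild type, with 2 of 5 genes called. Whether the cdh24 counts came from B or T cells was not tested.

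cdh11, OB-cadherin of mesenchymal cells, had 56, 12 and 20 counts in the mutants and 0, 2 and 2 in the wild types. It is outside the minimum mean of 20 counts set for named genes and is described because it was called. The groups did not overlap, and 88 counts against 4 gave a ratio of 23.6 with a 95% counting interval of 6.14 to 201 on halved counts (fitted log2 fold change 4.41 ± 0.89, edgeR adjusted p = 0.012). Mutant replicate 1 held most of the counts, and without it the fitted value was 3.61. In the RefSeq order of the GRCz12tu assembly cdh11 is next to cdh5 on chromosome 7, with 0 protein-coding genes between them. cdh5, the VE-cadherin of vessels, which the choice of genes left out, had 268, 458 and 336 counts in the mutants and 24, 29 and 54 in the wild types (log2 fold change 3.42 ± 0.35, edgeR adjusted p = 0.000459). Of 6 endothelial markers, 5 were called higher (cdh5, kdrl, pecam1a, egfl7 and plvapb) and tie1 was not called, while the summed level, most of it tie1, was 108 to 136 CPM against 98.6 to 130 CPM. The part of endothelial cells in the cdh11 values was not tested. The last tested type II gene, cdh6, had 36 to 72 counts in the mutants and 20 to 50 in the wild types (adjusted p = 0.429).

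**Figure D3:**
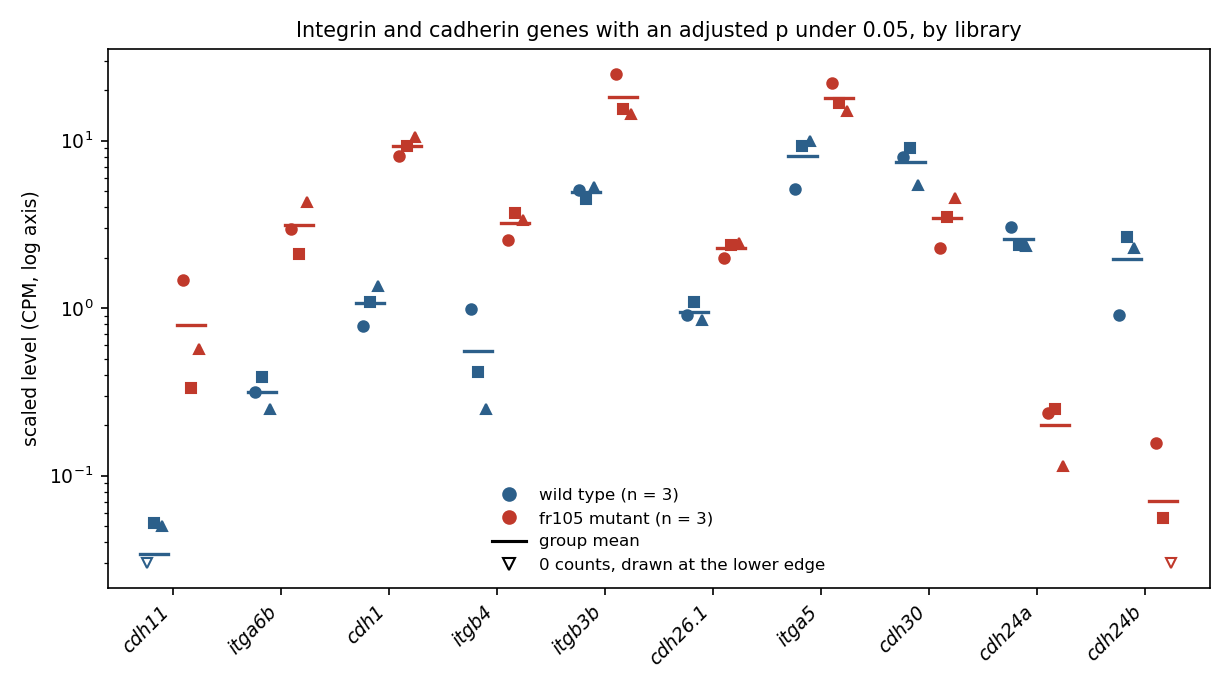
Level (CPM, logarithmic y axis; a library at 0 is an open triangle at the lower edge) of the 10 called integrin and cadherin genes in each library, red for the 3 fr105 mutants and blue for the 3 wild types, with a line at the group mean and a marker shape for each replicate. Each gene separates the groups: itga6b, itga5, itgb3b, itgb4, cdh1, cdh11 and cdh26.1 are higher in the mutants, and cdh24a, cdh24b and cdh30 are lower.

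cdh28 and cdh30 are cadherin genes next to each other on chromosome 7 of GRCz12tu, with 0 protein-coding genes between them and 3 between cdh28 and cdh1. cdh30 had 87, 126 and 158 counts in the mutants and 305, 350 and 217 in the wild types. Each mutant was below each wild type, for a log2 fold change of -1.13 ± 0.29 (SE, n = 3 per group; edgeR adjusted p = 0.0311), but the call was lost without mutant replicate 1 (0.0855), mutant replicate 2 (0.0715), wild-type replicate 4 (0.0715) or wild-type replicate 5 (0.0947). cdh28 had 368, 437 and 584 counts against 270, 350 and 222, with each mutant above each wild type. Its log2 fold change of 0.83 ± 0.25 was just outside the threshold (edgeR adjusted p = 0.0515, range 0.0124 to 0.06 over 8 alternatives, of which 3 passed). The share of this pair taken by cdh30 was 19.1, 22.4 and 21.3% in the mutants and 53.0, 50 and 49.4% in the wild types, or 20.9 ± 1.66% against 50.8 ± 1.94% (SD, n = 3 each). The 6 pairs of copies or neighbours were chosen after the values had been seen, so no test is given for their shares.

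**Figure D4:**
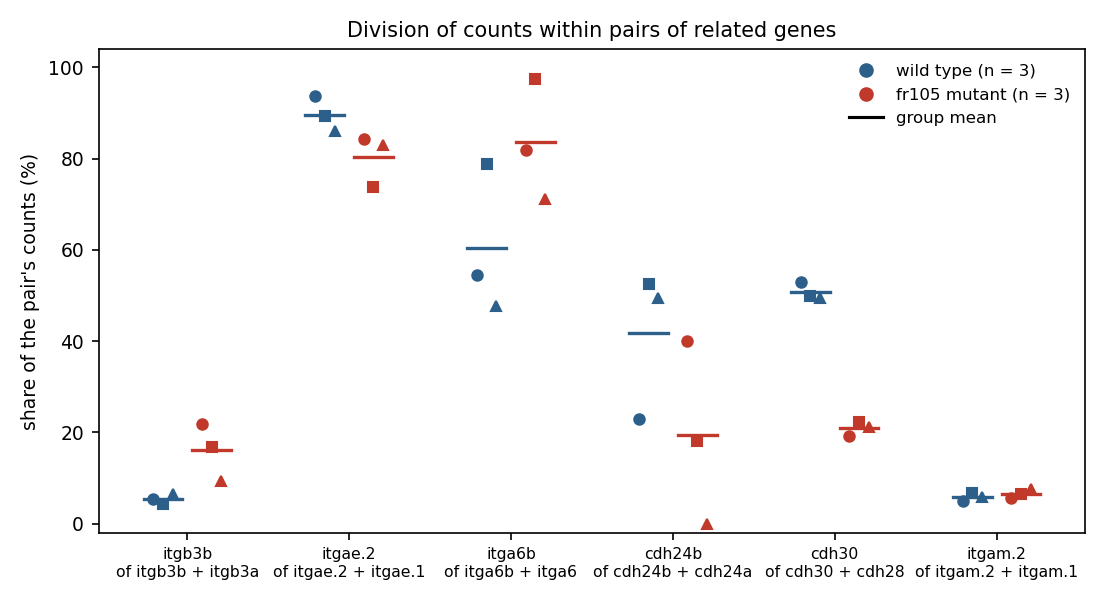
Share of a pair's counts (percent, y axis) taken by 1 gene of 6 gene pairs in each library, red for fr105 mutants and blue for wild types. The cdh30 share of cdh30 plus cdh28 is 19.1 to 22.4% in the mutants and 49.4 to 53.0% in the wild types, and the itgb3b and itgae.2 shares also do not overlap.

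Of the counts of all 17 cadherin genes, cdh1 and cdh28 together took 46.1 to 59.0% in the mutants and 22.9 to 27.5% in the wild types. For both genes each mutant lay above each wild type, so this share describes the same values again and is no separate result. The summed cadherin level was 38.4, 40.0 and 46.2 CPM in the mutants and 30.1, 37.0 and 30.1 CPM in the wild types, and the groups did not overlap. In these sums cdh1 was 8.10, 9.23 and 10.5 CPM in the mutants and 0.784, 1.09 and 1.35 CPM in the wild types. The gap between the groups was smaller than the cdh1 level of any mutant, and the separation did not hold without cdh1. The summed integrin level overlapped between the groups, with 2297, 2530 and 2793 CPM against 2172, 2762 and 2298 CPM.

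cdh26.1 belongs to a less studied branch, and its human counterpart is known from epithelium. It had 76, 86 and 86 counts in the mutants and 35, 42 and 34 in the wild types. Both groups were narrow, and the log2 fold change was 1.26 ± 0.26 (SE, n = 3 per group; edgeR adjusted p = 0.0122, and 0.0509 without mutant replicate 3). Its neighbour cdh26.2 was too low for the test, at 6, 10 and 6 counts against 0, 2 and 2. cdh17, an intestinal and kidney cadherin with an extended extracellular part, had 248, 106 and 134 counts against 108, 132 and 64, with overlap (adjusted p = 0.18). cdh13, a cadherin held by a lipid anchor, had 17, 41 and 20 counts in the mutants and 45, 46 and 52 in the wild types, without overlap but not called (adjusted p = 0.214). cdh23, the tip-link cadherin of hair cells, had 61 to 126 counts against 98 to 166 (adjusted p = 0.298).

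Of the 47 genes, 9 were too low to be tested. They were itga10, itga11, itga2.3, itga6l, the itgb1 gene ENSDARG00000022689, cdh12a, cdh18a, cdh16 and cdh26.2, none of them above 26 counts in a library. Of the 14 genes under the minimum of 10 counts, 7 were at 0 in all 6 libraries (cdh10a, cdh18, cdh22, cdh27, cdh31, cdh7b and itgbl1). The other 7 had 2 to 4 counts in all (cdh15, cdh29, cdh7, itga11 ENSDARG00000007950, itga2.1, itgb6 and itgb8). At this depth these values do not separate low from absent transcripts.

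The proteins that connect these receptors to actin and to signalling were taken as lists. Listed symbols without a match among the genes were not analysed. Matched were 33 of 41 symbols of integrin activators and adaptors and 18 of 21 of focal adhesion kinases. For catenins and cadherin partners 10 of 19 were matched, and for integrin ligands 37 of 45. Of 32 tested integrin activators and adaptors, 10 were higher and 4 lower (43.8% called), with a median log2 fold change of 0.16. The parvins connect integrin-linked kinase to actin, and the alpha parvin genes were nearly unread in the wild types. parvaa had 786, 675 and 729 counts in the mutants and 6, 0 and 1 in the wild types, a ratio of 335 with a 95% counting interval of 123 to 1390 on halved counts (log2 fold change 8.31, edgeR adjusted p = 2.87e-05). Wild-type replicate 4 held 6 of the 7 wild-type counts, and without it the fitted log2 fold change was 10.29. parvab, singled out after its values were seen, had 42, 32 and 53 counts against 0 in every wild type, at least 7.55-fold higher when 3 read pairs (6 counts) are taken as the floor of each wild-type library. parvb and parvg, in contrast, were not called, with log2 fold changes of -0.07 and -0.27.

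The actin crosslinker flnb (ENSDARG00000098374) had 505, 606 and 490 counts in the mutants and 38, 55 and 82 in the wild types (log2 fold change 3.30 ± 0.26, edgeR adjusted p = 0.000133). Another gene with this symbol, ENSDARG00000092281, had 6, 12 and 13 counts against 6, 14 and 12 and was not called (log2 fold change 0.07, edgeR adjusted p = 0.945). The far more abundant flna had 45937, 37700 and 32604 counts against 29960, 40555 and 39599 and was not called (0.17, edgeR adjusted p = 0.448). The tensins tns1b and tns3.2, which tie integrins to actin, rose by 1.86 and 1.51 on the log2 scale. Called lower were rasgrp3, which activates Rap1 (-1.03), the crosslinker actn1 (-0.79) and the actin regulator nckap1 (-0.65, lost without any 1 mutant or wild-type replicate 5). The Rap1 effector apbb1ip was also called lower (-0.33, edgeR adjusted p = 0.0498, lost without any 1 of the 6 libraries). Of the Rap1 genes themselves, rap1aa was called higher (0.68, edgeR adjusted p = 0.0109), and rap1ab (0.27) and rap1b (0.17) were not called. The tested switches of the beta tail were not called. The log2 fold change was 0.13 for the talin tln1 and -0.29 for the blood kindlin fermt3a (edgeR adjusted p = 0.0683). For fermt3a each mutant lay below each wild type, and the adjusted p was 0.0429 to 0.119 over 8 alternatives, of which 1 passed. The kindlins fermt1 and fermt2 were too low for the test, and the listed tln2a, tln2b and fermt3b had no match. ilk, the integrin-linked kinase, was at 0.02.

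Of 18 kinases and docking proteins of focal adhesions, 3 were higher and 4 lower (38.9% called), with a median of 0.01. ptk2aa, a focal adhesion kinase gene, had 291, 227 and 261 counts in the mutants and 14, 18 and 34 in the wild types (log2 fold change 3.66 ± 0.31, edgeR adjusted p = 0.000197). Its sister copy ptk2ab had 50, 72 and 50 counts against 50, 58 and 47 and was not called (0.25, edgeR adjusted p = 0.567). The kinase src and the docking protein bcar1 rose by 1.91 and 1.1. ptk2ba, the related kinase Pyk2 of blood cells, fell by 0.68, syk by 0.44 and the adaptor crkl by 0.38. The fourth called lower was pak1, below the level set for named genes. The calls of syk and crkl were lost without any 1 mutant, wild-type replicate 5 or wild-type replicate 6, with adjusted p of up to 0.149 and 0.0838.

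Of the 10 catenins and cadherin partners matched among 19 listed, 5 were higher and 1 lower (60.0% called), with a median of 0.74. afdna, an afadin that connects nectins to actin, had 588, 509 and 651 counts in the mutants and 50, 46 and 18 in the wild types (log2 fold change 4.03 ± 0.34, adjusted p = 0.000198). ctnnd2a, a delta catenin, had 286, 214 and 220 counts against 22, 18 and 18 (3.72 ± 0.22, adjusted p = 3.72e-05). ctnna1, the alpha catenin that binds actin, had 8537, 5787 and 5344 counts against 2321, 1577 and 2897 (1.63 ± 0.23, adjusted p = 0.00237). Like cdh1, these partners were called higher in the mutants, as were 11% of all genes tested, and their levels of counts were very different. A link between them and cdh1 was not tested. The p120 catenin ctnnd1 rose by 1.22 and the plakoglobin jupa by 0.45, and ctnnd2b fell by 1.83 from a low level. The jupa call was lost without any 1 mutant, wild-type replicate 5 or wild-type replicate 6, and the ctnnd2b call without any 1 library other than mutant replicate 1. The beta catenins ctnnb1 and ctnnb2 had log2 fold changes of 0.15 and 0.26 and were not called.

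Of 29 tested matrix and cell surface ligands of integrins, 12 were higher and 2 lower (48.3% called), with a median of 0.51. The laminin chain lamc1 had 2111, 2265 and 1521 counts in the mutants and 46, 70 and 48 in the wild types (log2 fold change 5.26 ± 0.22, edgeR adjusted p = 1.05e-05). vwf, the von Willebrand factor of vessels and thrombocytes, had 793, 774 and 823 counts against 19, 8 and 34 (5.39 ± 0.36, adjusted p = 6.17e-05). lamb1b, another laminin chain, had 352, 423 and 398 counts against 62, 37 and 43 (3.14 ± 0.24). Of 8 tested laminin chains, 3 were higher (lamc1, lamb1a and lamb1b), 1 was lower (lama5) and the others were not called. The thrombospondin thbs1b rose by 2.39. lama5 fell by 1.13, with wild-type replicate 6 the highest library, and the junction molecule f11r.1 fell by 0.45. The lama5 call was lost without any 1 mutant or wild-type replicate 6, and the f11r.1 call without any 1 mutant, wild-type replicate 5 or wild-type replicate 6. The genes of the lists were picked with earlier results of these data known, so the shares called are descriptions beside the 19.8% of all genes.

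**Figure D5:**
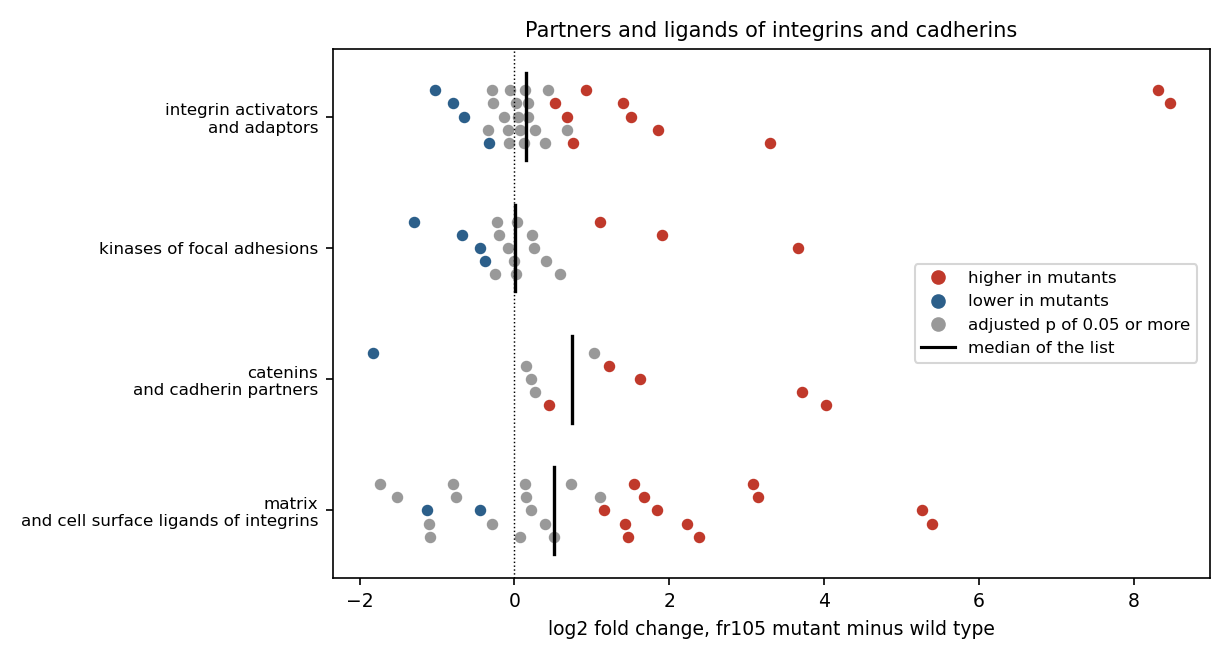
Log2 fold change (fr105 mutant minus wild type, x axis) of each tested gene of 4 lists of partners and ligands on the y axis, red where called higher, blue where called lower, grey otherwise, with the median of the list as a black line. Medians are 0.16, 0.01, 0.74 and 0.51 from top to bottom, and the points above 8 are parvaa and parvab, whose fitted values depend on wild-type counts at or near 0.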

How the data were processed

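Poly-A RNA-seq of 3 fr105 homozygous and 3 wild-type fish was analysed. The authors aligned paired reads to GRCz10 (Ensembl annotation) with STAR 2.5.2b-1 and counted them per gene with featureCounts 1.6.0.1; the deposited values are raw counts, not normalised. Of the counts from 1 to 4, 78.0 to 79.9% were even, which is what counting each mate on its own gives, so intervals of ratios were computed on halved counts, a choice made after seeing the data, and cover counting error only. Symbols came from an Ensembl gene name table (26269 of 32105 IDs) and the study's gene annotation (26381 in all), written in lower case.

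edgeR 4.0.16 in R 4.3.3 was used: TMM scaling, filterByExpr, a two-sided quasi-likelihood F test on genotype with no covariate, Benjamini-Hochberg adjustment over all genes tested, called at 0.05. Standard errors were derived from the fold change and F (its absolute value over √F). CPM uses TMM library sizes. With 3 against 3, an exact permutation test cannot go below 0.1, so only overlap of groups is given. P-values measure the spread between these libraries, each made from 1 fish according to the methods. Alternatives were DESeq2 1.42.0, other scalings and filters, robust fitting, halved counts, an adjusted p of 0.01, a log2 fold change of at least 1, and leaving out each library. The edgeR fit was tested on simulated data.

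Values in every library were planned for members called with a mean of at least 20 counts and for the 10 most abundant. Sister copies of either were included. Further members, such as itga8, itgb5, cdh2 and cdh13, were given in the same way outside that plan. In lists, up to 4 called genes per direction with a mean of at least 50 counts were planned, and some others were named beside them. Members and lists were chosen with earlier results of these data known. Gene order came from RefSeq GRCz12tu. Levels were not compared between genes by length, and no sequence was used.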

Additional observations from a re-analysis of the deposited data

How the results depend on the processing

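No paired analysis was possible because the replicate numbers of the mutants and of the wild types share none. Of all genes tested, 3291 were called; an adjusted p of 0.01 gave 1399, a log2 fold change of at least 1 gave 1810, and leaving out 1 library gave 1927 to 2837. At 0.01, the integrin and cadherin genes called higher went from 7 to 4 and the cadherins called from 6 to 3. DESeq2 called 5 rather than 3 genes lower, adding itga8 and itgae.2, and 8 rather than 7 higher, adding cdh28. Other scalings and filters, robust fitting and halved counts gave 6 to 8 higher and 3 to 4 lower. Leaving out 1 library gave 6 to 8 higher, 2 to 3 lower, 3 to 5 integrins and 5 to 6 cadherins. Adaptors called went from 14 to 9 at 0.01, to 7 at a log2 fold change of at least 1 and to 10 to 13 without 1 library; kinases from 7 to 3, to 4 and to 4 to 6; ligands from 14 to 6 at 0.01, to 9 with a mean of at least 50 counts and to 7 to 15; catenins from 6 to 4 to 5 without 1 library. No called gene described here changed sign under the alternatives run. The fold changes of cdh11, cdh24b, parvaa and parvab rest on few counts in 1 group. The cause of these changes was not tested.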
